A study of Mus musculus with 6 samples.

Results

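The interferon-stimulated and nucleic acid sensing genes are 54 mouse genes, chosen by symbol for what their products are known to do, that encode sensors of viral or displaced RNA and DNA, the receptors and messengers of interferon signalling, and the antiviral effectors that interferon induces. Of these, 53 had a probe on the array, out of 19057 genes measured, and each gene was represented by its brightest probe by mean over the 6 arrays. Ifi44 had no named probe and was not analysed here. The genes were chosen with earlier results of these data known. Their RNA was compared between Glis2KD cells, which received a hairpin against Glis2, and Control cells, which received one against GFP. Both groups were immortalized mouse proximal tubular cells, given in the labels as of C56BL/6 background, that carried a lentivirus and its short hairpin RNA, and both were harvested 7 days after infection and measured on 3 Illumina bead arrays each. Short hairpin RNAs are processed in the cell to small RNAs that lower a matching transcript, and Glis2 encodes a zinc finger transcription factor whose loss leads to cystic and fibrotic kidney disease. No uninfected cells are among the samples, and the labels do not say whether the replicates came from separate infections or how many hairpin sequences were used. Loss of Glis2 therefore cannot be told apart from other actions of its hairpin or from differences between the infected cell populations, and the p-values cover only the spread between these arrays.

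Cells detect foreign or misplaced nucleic acid through sensors such as the RIG-I-like helicases Ddx58 and Ifih1, which signal through Mavs, and through the STING protein Tmem173, which relays the presence of DNA in the cytosol. Both routes meet at the kinase Tbk1 and lead to the secretion of interferons. Type I interferons bind Ifnar1 and Ifnar2, whose kinases Jak1 and Tyk2 activate Stat2. Stat2 acts with Irf9 in a complex that binds the interferon-stimulated response element, ISRE, in the promoters of antiviral genes, whereas interferon gamma acts through Ifngr1 and Ifngr2 and on promoters with the gamma-activated site, GAS. Kidney tubular cells carry this system, and its genes are known to rise there in viral infection and in tubular injury.

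Glis2 was lower in the cells with its hairpin. Its intensity was 169, 161 and 176 on the Glis2KD arrays, against 278, 234 and 229.7 on the Control arrays, giving a log2 fold change of -0.55 ± 0.092 (± SE, as throughout; adjusted p = 6.32e-05, limma), and the groups did not overlap. A second probe of Glis2 had -0.36. These intensities include background, and the design text states a knockdown above 80%, from a measurement not used here. Over all genes limma called 4291 of 19057 at an adjusted p below 0.05, or 22.5%, of which 2164 were lower (11.4%) and 2127 higher (11.2%) in Glis2KD cells. Of the 9665 genes whose mean exceeded the background limit of 137, 43.1% were called, 21.9% lower and 21.2% higher. Of 14 proximal tubule markers, Aqp1 and Pax8 exceeded that limit on every Glis2KD array and Aqp1, Pax8 and Cdh16 on every Control array, while the defining genes Lrp2, Slc34a1 and Slc5a2 lay under it on all 6. The proximal tubule markers summed to between 2482 and 2753 on Glis2KD arrays and between 11662 and 13106 on Control arrays, with Aqp1 at 365 ± 101 in Glis2KD and 9760.0 ± 706 in Control cells (SD, n = 3 each), and the part of this difference in the results was not tested. Of 12 leukocyte markers, Csf1r exceeded it on every Glis2KD array and Laptm5 and Csf1r on every Control array. The leukocyte markers summed to between 1458 and 1582 on Glis2KD arrays and between 1528 and 1546 on Control arrays, and their defining gene Ptprc lay under the limit on all 6. These sums include background and hide opposite calls. Laptm5 was at least 1.27-fold lower in Glis2KD cells (limma's adjusted p = 9.98e-06), and Csf1r was higher, with a log2 fold change of 0.44 (adjusted p = 0.0020, limma). Of 10 fibroblast and pericyte markers, Acta2 exceeded the limit on every Glis2KD array and Dcn on every Control array, and the list summed to between 2235 and 2547 on Glis2KD arrays and between 1337 and 1357 on Control arrays. Acta2 was at 1302 ± 172 in Glis2KD and 145 ± 24.6 in Control cells, whereas Dcn was lower, at 139 ± 17.7 in Glis2KD and 275 ± 30.3 in Control cells (SD, n = 3 each). Egfl7 of 8 endothelial, Slc12a3 of 8 distal nephron and Podxl and Synpo of 3 podocyte markers exceeded it on all 6. Egfl7, Podxl and Synpo were called higher in Glis2KD cells, with log2 fold changes of 0.46, 0.39 and 0.42, and Slc12a3 was not called. No part of these lists in the results was tested.

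The interferon genes moved in both directions, and more of them were lower than higher. Of the 53 measured genes 16 fell in Glis2KD cells (30.2%, against 11.4% of all genes) and 6 rose (11.3%, against 11.2% of all genes), while 31 were not called. In RNA from whole cultures, fewer cells of a kind and less RNA per cell cannot be told apart. The genes that fell were Samd9l, Ifit3, Ifit2, Tyk2, Igtp, Stat2, Tmem173, Usp18, Ifi35, Dtx3l, Oasl2, Ifi27, Trim25, Tlr3, Isg15 and Mavs. Those that rose were Ifngr1, Ifitm3, Gbp2, Eif2ak2, Ifitm1 and Isg20. Their log2 fold changes ran from -2.10 for Samd9l to 1.43 for Ifngr1, and the median over the 53 was -0.03, beside 0.004 over all genes. The groups did not overlap in 18 of these genes that lay lower and 7 that lay higher in Glis2KD cells, that is the called genes with Tbk1 and Rtp4 lower and Irgm1 higher. Groups failed to overlap in 32.3% of all genes (16.1% lower, 16.1% higher) and in 52.2% of genes above the background limit (26.4% lower, 25.8% higher). The share of interferon genes that rose was near that of all genes. Mean intensity exceeded the background limit for 35 of the 53, all 22 called genes among them. The other 18 had a mean over all arrays under the limit, where a probe cannot be told from an empty one.

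**Figure D1:**
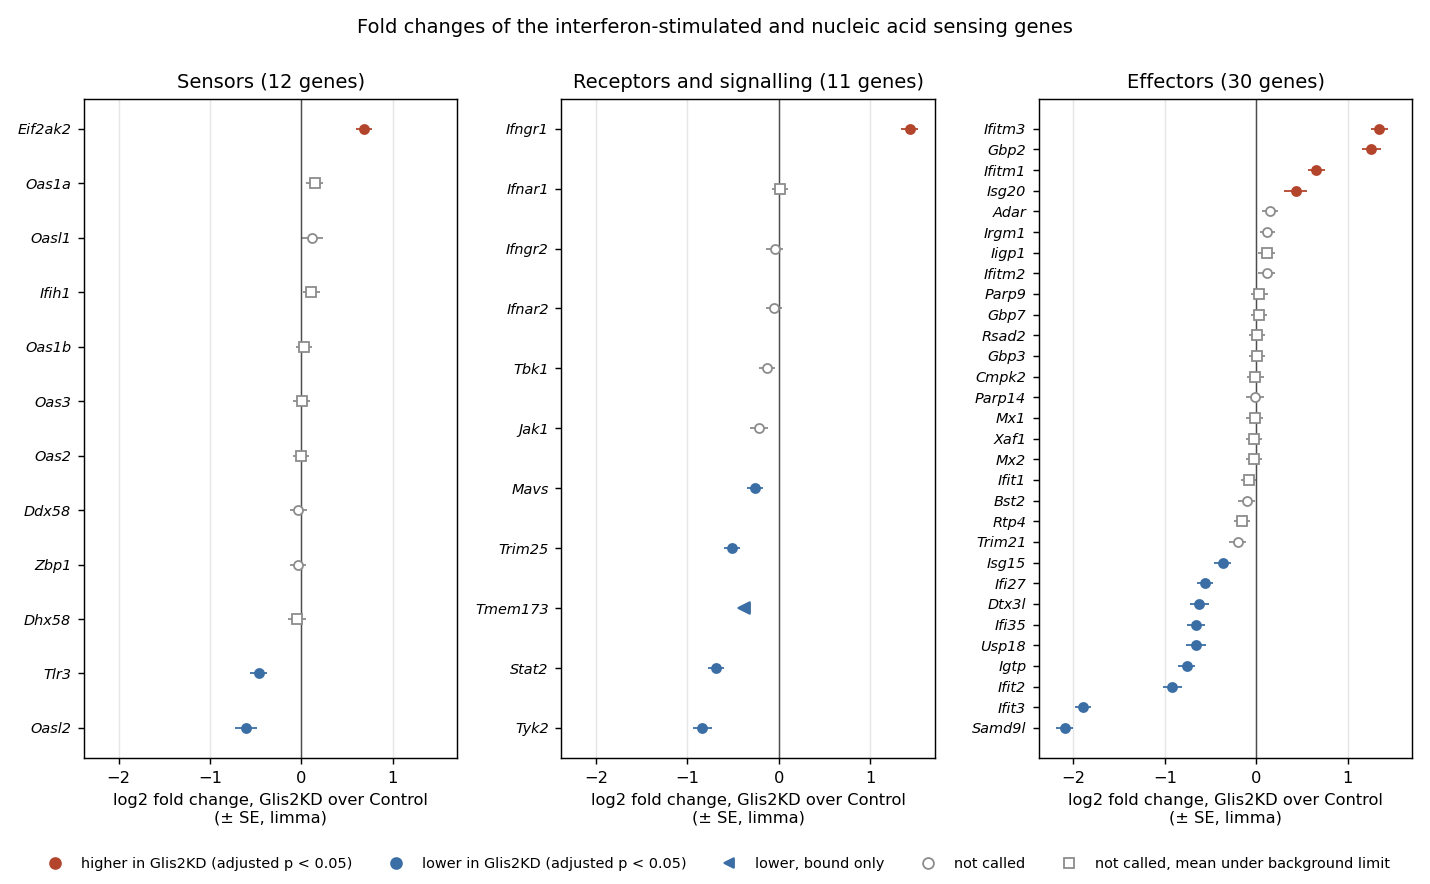
Log2 fold change (x axis, Glis2KD over Control, ± SE by limma, n = 3 arrays each) of each measured gene in 3 panels by role, with 12 sensors, 11 receptors and signalling genes and 30 effectors. Samd9l (-2.10) and Ifit3 (-1.90) lie farthest to the left and Ifngr1 (1.43), Ifitm3 (1.35) and Gbp2 (1.26) farthest to the right, while the squares, whose mean lies under the background limit, stay within 0.16 of 0; the triangle of Tmem173 marks its bound, at least 1.30-fold lower.

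Because the ISRE is the sequence through which interferon acts on many of these genes, the RefSeq promoter windows (GRCm38.p6, 250 bases before to 50 after the transcript start) were searched for its core, a pair of GAAA blocks 2 bases apart, on both strands. Windows were found for 40 of the 53 genes, and 19 of these held the core (47.5%), against 3.99% of 27025 genes in the table. The core stood in the windows of 4 of 13 genes that fell, 3 of 6 that rose and 12 of 21 that were not called. Genes with the core therefore lay on both sides. The 7 windows of called genes with the core are shown, the 4 genes that fell first, with each match in capitals.

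Ifit3 (chr19:34583279-34583578, plus strand): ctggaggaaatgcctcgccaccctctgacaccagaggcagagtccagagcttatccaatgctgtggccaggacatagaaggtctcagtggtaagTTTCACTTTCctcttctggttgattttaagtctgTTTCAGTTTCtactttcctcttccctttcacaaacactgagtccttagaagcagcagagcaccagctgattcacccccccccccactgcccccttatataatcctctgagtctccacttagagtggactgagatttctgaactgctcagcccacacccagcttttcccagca
Stat2 (chr10:128270248-128270547, plus strand): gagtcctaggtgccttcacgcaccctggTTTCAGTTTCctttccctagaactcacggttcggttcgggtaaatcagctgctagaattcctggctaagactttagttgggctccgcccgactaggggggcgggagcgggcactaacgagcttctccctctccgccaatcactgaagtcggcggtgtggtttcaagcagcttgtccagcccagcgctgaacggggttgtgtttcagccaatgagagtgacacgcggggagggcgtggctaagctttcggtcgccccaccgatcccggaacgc
Igtp (chr11:58199306-58199605, plus strand): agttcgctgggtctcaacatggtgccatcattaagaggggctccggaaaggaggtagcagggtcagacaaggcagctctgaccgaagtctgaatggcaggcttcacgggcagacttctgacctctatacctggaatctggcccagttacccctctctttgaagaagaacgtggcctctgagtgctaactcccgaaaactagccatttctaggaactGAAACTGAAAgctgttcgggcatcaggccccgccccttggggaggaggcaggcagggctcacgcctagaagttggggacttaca
Isg15 (chr4:156200769-156201068, minus strand): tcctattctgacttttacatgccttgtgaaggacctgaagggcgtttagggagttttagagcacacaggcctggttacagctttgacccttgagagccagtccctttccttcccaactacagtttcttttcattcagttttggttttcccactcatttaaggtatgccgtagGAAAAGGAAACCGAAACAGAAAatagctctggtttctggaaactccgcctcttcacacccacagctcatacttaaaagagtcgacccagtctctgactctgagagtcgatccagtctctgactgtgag
Ifitm3 (chr7:141010695-141010994, minus strand): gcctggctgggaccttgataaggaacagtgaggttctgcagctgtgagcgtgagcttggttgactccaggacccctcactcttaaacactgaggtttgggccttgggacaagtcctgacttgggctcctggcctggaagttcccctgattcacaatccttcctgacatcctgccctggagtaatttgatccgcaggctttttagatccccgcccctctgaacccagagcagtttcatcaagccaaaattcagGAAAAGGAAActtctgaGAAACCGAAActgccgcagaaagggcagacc
Gbp2 (chr3:142620413-142620712, plus strand): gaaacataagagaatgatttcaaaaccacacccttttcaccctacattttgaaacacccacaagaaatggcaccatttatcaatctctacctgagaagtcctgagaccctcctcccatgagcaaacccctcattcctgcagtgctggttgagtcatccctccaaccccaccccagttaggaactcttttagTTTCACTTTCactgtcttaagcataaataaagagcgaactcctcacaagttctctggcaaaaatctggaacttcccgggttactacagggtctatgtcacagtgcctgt
Eif2ak2 (chr17:78882523-78882822, minus strand): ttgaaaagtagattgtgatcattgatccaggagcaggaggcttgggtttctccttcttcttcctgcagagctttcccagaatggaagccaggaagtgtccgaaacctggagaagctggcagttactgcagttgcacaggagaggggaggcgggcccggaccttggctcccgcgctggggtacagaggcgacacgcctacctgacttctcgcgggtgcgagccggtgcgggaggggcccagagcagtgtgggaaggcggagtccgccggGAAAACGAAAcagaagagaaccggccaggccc

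The capitals begin 156 and 122 bases before the transcript start in Ifit3, 222 before it in Stat2, 34 before it in Igtp and 59 before it in Gbp2. In Isg15 there are 3 matches that overlap each other and begin 78, 72 and 66 bases before the start, whereas in Ifitm3 they begin at bases 3 and 20 after it and in Eif2ak2 at base 19 after it. The GAS letters TTCNNNGAA, searched on both strands, were in 12 of the 40 windows, against 9.55% of all genes, among them Ifit2, Igtp and Ifi35 of the genes that fell and Eif2ak2, Isg20 and Ifitm3 of those that rose. In the 7 windows shown, 1 match of the ISRE core overlapped a GAS match. A core of the site bound by Gli zinc finger proteins, CCACCCA, was in 6 of the 40, against 10.6% of all genes, and those were Tyk2, Ifit2, Ifngr1, Isg20, Ifnar1 and Ifnar2. The windows of Samd9l and Ifngr1 did not hold the ISRE core. These matches describe letters in a short window and are no evidence of binding.

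Among the 12 sensors, Oasl2 and Tlr3 fell (16.7%, against 11.4% of all genes) and Eif2ak2 rose (8.33%, against 11.2%), shares near those of all genes. Tlr3, the endosomal receptor of double-stranded RNA, had intensities of 188, 164 and 154 in Glis2KD cells, against 246, 235 and 218 in Control cells. Its log2 fold change was -0.47 ± 0.094 with limma's adjusted p = 0.00045. All 3 Glis2KD arrays lay below all 3 Control arrays, and with background subtracted the change was -1.15 and no longer called (adjusted p = 0.0669, limma). Oasl2, an oligoadenylate synthetase-like protein of the antiviral response, had 403, 391 and 523 in Glis2KD cells, against 833, 613 and 572 in Control cells, with Control replicate 1 the highest of the 6. The log2 fold change of Oasl2 was -0.61 ± 0.12 (adjusted p = 0.000502, limma), and it was -0.15 (adjusted p = 0.143) when its 3 probes were averaged, 2 of which lay at background. With background subtracted Oasl2 lost its call as well (adjusted p = 0.1561, limma). Eif2ak2, the kinase PKR that halts translation when it meets double-stranded RNA, went the other way. It had 1689, 1818 and 1727 in Glis2KD cells, against 1096, 1119.8 and 1032 in Control cells, a log2 fold change of 0.69 ± 0.086 with limma's adjusted p = 1.05e-06, and the groups were well apart.

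The RIG-I-like helicases were not called. Ddx58, which binds short RNA with a 5′ triphosphate, had 233, 246 and 269.8 in Glis2KD and 255, 269.8 and 239.8 in Control cells, and its log2 fold change was -0.03 ± 0.09 (SE). For Oasl1, which is known in mouse to limit translation of Irf7, the values were 349, 399.5 and 522 in Glis2KD and 384, 423 and 352 in Control cells, with Glis2KD replicate 3 above the rest. Zbp1, a sensor of left-handed nucleic acid that can trigger cell death, had 176, 156 and 166 in Glis2KD and 174, 168 and 168 in Control cells. In these 3 genes the groups overlapped on the probe used. Both further probes of Oasl1 lay above the limit and were higher in Glis2KD cells without overlap. The brighter of them had a log2 fold change of 0.17, and the dimmer was at least 1.08-fold higher. Neither passed the threshold (limma's adjusted p over all probes = 0.235 and 0.140). The remaining 6 sensors, Ifih1, Dhx58, Oas1a, Oas1b, Oas2 and Oas3, had group means under the background limit. Ifih1 and Dhx58 are helicases that bind RNA, and Oas1a, Oas2 and Oas3 make short oligoadenylates when they bind double-stranded RNA. The values of these 6 sensors on single arrays ran from 99.4 to 131 over both groups, so they gave no signal to compare.

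Of the 11 receptors and signalling genes 5 fell (45.5%, against 11.4% of all genes) and 1 rose (9.09%, against 11.2% of all genes). All 6 called genes lay among the 10 of this role above background. Of these 10, 5 fell, against 21.9% of all genes above background. Tyk2, a kinase of the type I interferon receptor, had 418, 475 and 559 in Glis2KD cells, against 829, 958 and 800.0 in Control cells. Stat2, the transcription factor specific to type I and type III interferon signalling, had 200.4, 212 and 206 in Glis2KD cells, against 340.2, 319.9 and 336 in Control cells. Neither gene showed overlap between groups, and the Stat2 values were tight within each. The log2 fold changes were -0.84 ± 0.10 for Tyk2 (limma's adjusted p = 9.06e-07) and -0.69 ± 0.085 for Stat2 (adjusted p = 9.44e-07). Both further probes of Tyk2 were lower too, with log2 fold changes of -0.50 and -0.29.

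On the sensing side of this group, Tmem173, Trim25 and Mavs fell. Tmem173, the STING protein (Sting1 in the array annotation), had 106, 112 and 114 in Glis2KD cells, all under the background limit, against 175, 171 and 186 in Control cells. It was at least 1.30-fold lower when the limit stands in for those 3 arrays, with limma's adjusted p = 1.18e-06. The 50 nearest genes above background around it on chromosome 18 had a median log2 fold change of -0.38. Trim25, the ubiquitin ligase that assists Ddx58, had 1723, 1563 and 1694 in Glis2KD cells, against 2250.4, 2609.8 and 2261 in Control cells, a log2 fold change of -0.51 ± 0.09 (adjusted p = 0.000105, limma). A dimmer second probe of Trim25 had -0.06, with groups that overlapped. Mavs, the adaptor on mitochondria that RIG-I-like helicases signal through, had 515, 499.6 and 599 in Glis2KD cells, against 649, 630.0 and 649.8 in Control cells. Its change was small, -0.26 ± 0.09 with limma's adjusted p = 0.0376, and the call was lost without Control replicate 1, 2 or 3 or without Glis2KD replicate 1 or 2, where limma's adjusted p lay between 0.0639 and 0.176. The same happened with background subtracted, with normexp correction and with trended robust variances (0.0658 to 0.126).

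Ifngr1, the ligand-binding chain of the interferon gamma receptor, had the highest log2 fold change of the 53 genes on the intensities as deposited, while Gbp2 lay higher with background subtracted. It had 1791, 2031 and 1996 in Glis2KD cells, against 779, 724 and 658 in Control cells, a 2.70-fold difference with a log2 fold change of 1.43 ± 0.092 and limma's adjusted p = 1.73e-11. The partner chain Ifngr2 did not follow, with 349, 368 and 349.7 in Glis2KD and 399.7, 366 and 338 in Control cells and a log2 fold change of -0.05 ± 0.089. The difference between the changes of the receptor chains was not tested. Tbk1, the kinase that activates Irf3, had 4059, 3827 and 3853 in Glis2KD and 4690.0, 4079 and 4123 in Control cells. All Glis2KD arrays lay below all Control arrays for Tbk1, yet its log2 fold change of -0.13 ± 0.088 did not pass the threshold (adjusted p = 0.375, limma). Jak1, the kinase shared by both receptor types, had 335, 336 and 319 in Glis2KD and 429, 403 and 325 in Control cells and was not called (-0.21 ± 0.098, adjusted p = 0.142, limma). Without Control replicate 3, whose value lay among the Glis2KD arrays, Jak1 had -0.33 and an adjusted p = 0.0132. The type I receptor chains were not called either, Ifnar2 with -0.06 and Ifnar1 with all 6 arrays under the background limit.

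Of the 30 effectors 9 fell (30%, against 11.4% of all genes) and 4 rose (13.3%, against 11.2% of all genes). All 13 called genes lay among the 19 effectors above background. Of these 19, 9 fell, against 21.9% of all genes above background. Samd9l, a restriction factor of poxviruses and a brake on cell growth that interferon induces, had the lowest log2 fold change of the 53 genes on the intensities as deposited, while Ifit3 and Igtp lay lower with background subtracted. It had 2088, 2007 and 1869 in Glis2KD cells, against 9779, 7747 and 8076 in Control cells, a log2 fold change of -2.10 ± 0.096 with limma's adjusted p = 3.14e-14. That is 4.28-fold lower, and every Glis2KD array lay far below every Control array. Samd9l rests on 1 probe, and over the alternative settings with a test its log2 fold change stayed between -2.16 and -1.99.

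Of the Ifit genes, whose proteins bind foreign RNA and block its translation, Ifit2 and Ifit3 fell, and Ifit1 was not detected. Ifit3 had 148, 159.8 and 167 in Glis2KD cells, against 582, 546 and 639.8 in Control cells, and Ifit2, its neighbour on chromosome 19, had 555, 432 and 545 in Glis2KD cells, against 875, 971 and 1036 in Control cells. Their log2 fold changes were -1.90 ± 0.091 (limma's adjusted p = 6.74e-14) and -0.92 ± 0.10 (adjusted p = 1.63e-07), with no overlap of groups. The second probe of each gene was lower as well, with a log2 fold change of -0.81 for Ifit2 and at least 1.26-fold for Ifit3, whose second probe lay under the limit on all Glis2KD arrays. The Glis2KD level of Ifit3 was close to the background limit, and with background subtracted its change was -3.42. Ifit1, on the same chromosome, had 101, 113 and 101 in Glis2KD and 111, 115 and 105 in Control cells, all under the limit.

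Usp18, Isg15 and Dtx3l belong to the ubiquitin-like part of the response, Isg15 being the modifier that is joined to other proteins and Usp18 the protease that removes it and also restrains the type I receptor. Usp18 had 1217, 1077 and 1522 in Glis2KD cells, against 2144, 1906 and 1933 in Control cells (-0.66 ± 0.11, limma's adjusted p = 3.34e-05). Isg15 had 147, 144 and 160.5 in Glis2KD cells, against 217, 179 and 186 in Control cells (-0.36 ± 0.093, adjusted p = 0.00457, limma). Both were lower on every Glis2KD array. Dtx3l, a ubiquitin ligase that works with Parp9, had 495, 350.2 and 389 in Glis2KD cells, against 601, 628 and 654 in Control cells (-0.62 ± 0.10, limma's adjusted p = 6.13e-05). A dimmer probe of Dtx3l had the opposite sign, with 147, 175 and 158 in Glis2KD cells, against 126, 138 and 139 in Control cells, and with both probes averaged the log2 fold change was -0.19 (adjusted p = 0.0677, limma). Usp18, Isg15 and Dtx3l lost their calls with background subtracted, at adjusted p = 0.0628, 0.0678 and 0.07355 by limma. The partner Parp9, which lies next to Dtx3l on chromosome 16, had a mean under the background limit, and Parp14 on its other side had -0.01; both are ADP-ribosyltransferases of the interferon response.

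Igtp, Ifi35 and Ifi27 complete the effectors that fell. Igtp, an immunity-related GTPase that acts on vacuoles of intracellular pathogens, had 128, 143 and 121 in Glis2KD cells, 2 of them under the background limit, against 209, 219.7 and 232 in Control cells. Ifi35, an interferon-induced leucine zipper protein, had 330.5, 302 and 402 in Glis2KD cells, against 532, 509 and 586 in Control cells. For Ifi27, a small interferon-induced membrane protein, the values were 426, 447 and 453 in Glis2KD cells, against 648, 692 and 617 in Control cells. None of the 3 had overlapping groups. Their log2 fold changes were -0.76 ± 0.09, -0.66 ± 0.10 and -0.56 ± 0.087, with limma's adjusted p = 5.32e-07, 1.87e-05 and 2.05e-05, and a second probe of Ifi27 had -0.56.

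The effectors that rose were Ifitm3, Gbp2, Ifitm1 and Isg20. Ifitm proteins sit in endosomal and cell membranes and hinder the entry of viruses, and their genes stand side by side on chromosome 7. Ifitm3 had 3010.3, 2979 and 2851 in Glis2KD cells, against 1253, 1028 and 1206 in Control cells, 2.54-fold higher with a log2 fold change of 1.35 ± 0.092 and limma's adjusted p = 5.08e-11. Ifitm1 had 3880.4, 3843 and 3345 in Glis2KD cells, against 2541, 2187 and 2302 in Control cells (0.65 ± 0.092, limma's adjusted p = 6.19e-06). Ifitm2, also a bright probe, had 9260.2, 8761 and 8761 in Glis2KD and 7921, 7472 and 9502 in Control cells and was not called (0.11 ± 0.095). The rise of Ifitm1 rests on its brightest probe. A second one had 108, 103 and 113 in Glis2KD cells, all under the background limit, against 234, 276 and 212 in Control cells. That is at least 1.75-fold lower, against the limit, and the mean of its 5 probes had -0.17 (adjusted p = 0.0561, limma). Ifitm genes are similar in sequence, the probe sequences were not used here, and cross-hybridization between them was not tested.

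Gbp2, a guanylate-binding GTPase that attacks intracellular pathogens and is a strong target of interferon gamma, had 401, 350.1 and 382 in Glis2KD cells, against 158, 183 and 135 in Control cells, 1 of which lay under the background limit. It was 2.39-fold higher, with a log2 fold change of 1.26 ± 0.10 and limma's adjusted p = 1.16e-09. With the mean of its 3 probes the change was 0.49, and the further probes lay under the limit in both groups. Its family members Gbp3 and Gbp7, close to it on chromosome 3, had means under the limit. Isg20, an exonuclease that degrades single-stranded RNA, had 388, 443 and 357 in Glis2KD cells, against 325, 349.9 and 220.0 in Control cells, with Control replicate 3 the lowest of the 6. Its log2 fold change of 0.43 ± 0.13 (limma's adjusted p = 0.0141) was 0.22 without Control replicate 3 and 0.35 without Glis2KD replicate 2, with the call lost in both cases (adjusted p = 0.159 and 0.101). The call was also lost with background subtracted and in the fit on probe means (adjusted p = 0.404 and 0.06535, limma). The neighbours of Isg20 above background had a median of 0.27.

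**Figure D2:**
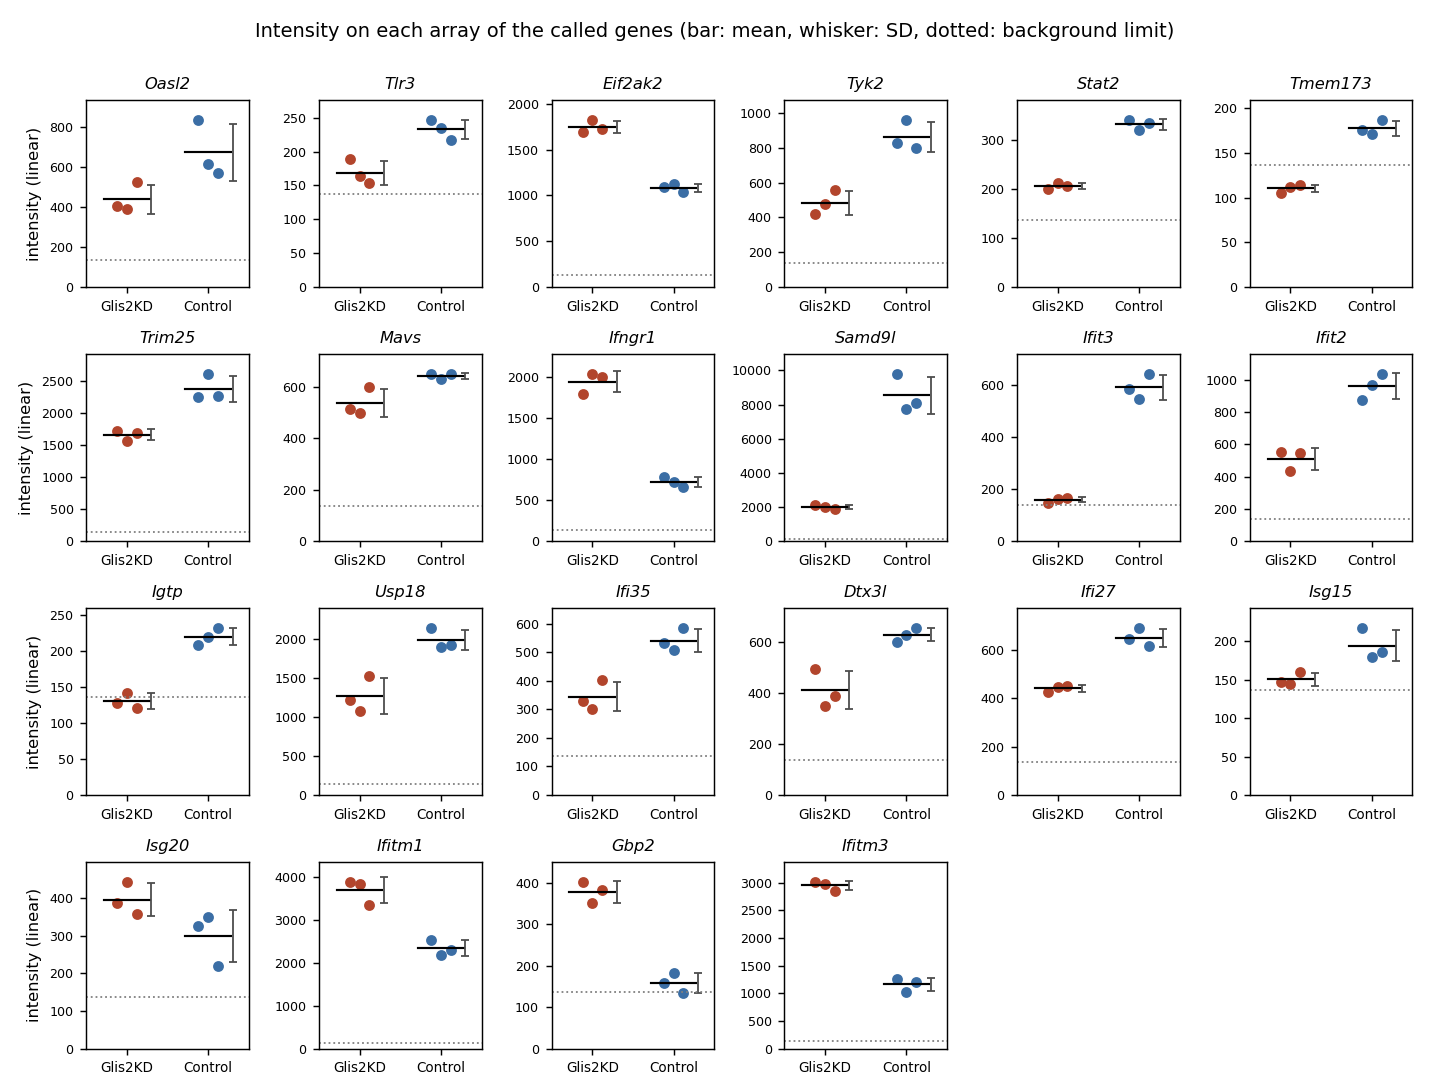
Intensity on the linear scale (y axis, each panel with its own range from 0) on the 3 Glis2KD arrays, left, and the 3 Control arrays, right, of the 22 called genes, in the order sensors, receptors and signalling, effectors. Bars are means, whiskers SD and the dotted line the background limit of 137; no panel has overlapping groups, and Tmem173 lies under the line on all Glis2KD arrays.

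Of the 17 effectors that were not called, Irgm1 had 21116, 20307 and 20452 in Glis2KD and 18926, 19425 and 18614 in Control cells. Irgm1 is an immunity-related GTPase that controls the activity of Igtp and its relatives, and although its groups did not overlap, the log2 fold change of 0.12 ± 0.084 was small (adjusted p = 0.411, limma). With background subtracted it was also 0.12, and was called (adjusted p = 0.0453, limma). Adar, the enzyme that edits double-stranded RNA, had 467, 510.1 and 509 in Glis2KD and 485, 438 and 419 in Control cells, and its groups overlapped. Its 4 further probes had log2 fold changes between -0.13 and 0.07. Parp14, Trim21, an antibody receptor in the cytosol, and Bst2, a tether of budding virus, were above background and had -0.01, -0.20 and -0.11. The other 11, Ifit1, Rsad2, Mx1, Mx2, Gbp3, Gbp7, Iigp1, Xaf1, Parp9, Cmpk2 and Rtp4, had means under the limit and log2 fold changes between -0.16 and 0.12. Rsad2, Mx1 and Mx2 are textbook products of an active interferon response, and none of their 6 arrays exceeded the limit. Each rests on 1 probe, and what these probes detect in cells of this background was not tested.

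The 104 probes of the 53 genes allowed a further check. Of these genes 29 had more than 1 probe, and 14 had a further probe above the background limit. Among the called genes, Samd9l, Ifngr1, Ifitm3, Eif2ak2, Stat2, Tmem173, Igtp, Ifi35, Isg15, Isg20, Tlr3 and Mavs rest on 1 probe each. Tyk2, Ifit2, Ifit3, Usp18 and Ifi27 had further probes that were lower in Glis2KD cells with no overlap between groups. Those of Ifitm1 and Dtx3l had the opposite sign to the probe used. Among genes not called, further probes of opposite sign were also found for Ifnar2 (0.02), Ifngr2 (0.08) and Adar (-0.08 and -0.13), with groups that overlapped. No probe sequences were compared, and which transcripts each probe detects was not tested.

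**Figure D3:**
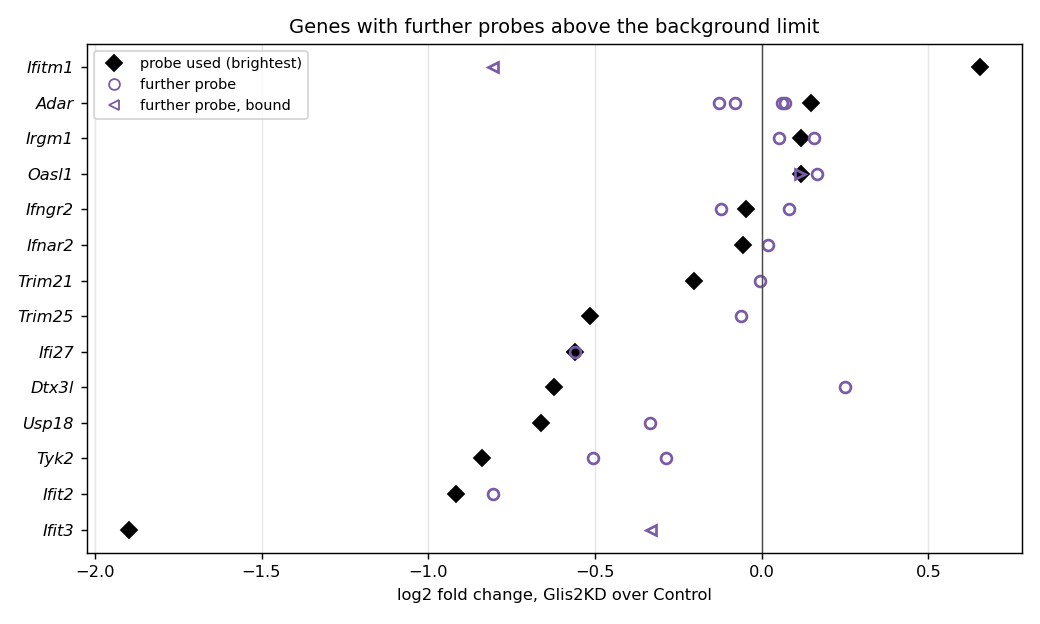
Log2 fold change (x axis, Glis2KD over Control) of the probe used for a gene (diamond) and of its further probes above the background limit (circles, or triangles at the bound where 1 group lay under the limit on all arrays), for the 14 genes that have such probes. Tyk2, Ifit2, Ifit3, Usp18 and Ifi27 have all their probes left of 0, and Ifitm1 has probes on both sides, 0.65 and at least 1.75-fold lower.

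Other genes of the interferon pathway were counted from 5 lists, which were also chosen with earlier results of these data known. Of 18 interferon genes measured, Ifnab was called (5.56%, against 22.5% of all genes), with 267, 295 and 279.8 in Glis2KD cells, against 194, 229.7 and 221 in Control cells (0.38 ± 0.091, limma's adjusted p = 0.00226). The list's median log2 fold change was 0.04. Ifnb1, an early interferon of infected cells, lay under the background limit on all 6 arrays, and 13 of the 18 had means under it. Among 19 other sensors and nucleases 1 fell and 2 rose, 15.8% in all against 22.5% of all genes. These were the helicase Dhx36, with -0.27, the nuclease Trex1, which degrades DNA in the cytosol, with 0.36, and Rnaseh2c, a subunit of the nuclease that removes RNA from DNA hybrids, with 0.27. In Dhx36 and Rnaseh2c the groups overlapped, and limma's adjusted p was 0.045 and 0.0471. The count of 3 called in this list was 0 without Control replicate 2 or without Glis2KD replicate 3 (at an unadjusted p below 0.05 it was 2 and 4), and 1 without Glis2KD replicate 1.

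Adaptors, kinases and transducers outside the 53 fell in 8 of 18 cases (44.4%, against 11.4% of all genes), and their median was -0.16. All 8 lay among the 15 genes of this list above background. Of these 15, 8 fell, against 21.9% of all genes above background. Il10rb and Ifnlr1 form the receptor of type III interferons. Il10rb had 293, 282 and 314 in Glis2KD cells, against 542, 509 and 487 in Control cells, and Ifnlr1 had 989.7, 1042 and 1016 in Glis2KD cells, against 1644, 1367 and 1441 in Control cells. Their log2 fold changes were -0.79 and -0.54, with no overlap of groups. Jak2, a kinase of the interferon gamma receptor, had -0.70, and Myd88, the adaptor of most Toll-like receptors, had -0.57; limma's adjusted p of the 4 was at most 5.32e-05. Without Glis2KD replicate 2 the list had 5 called genes.

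Of 18 genes listed as negative regulators 5 fell (27.8%, against 11.4% of all genes) and 2 rose (11.1%, against 11.2% of all genes). Their median was -0.06. All 7 called genes lay among the 15 of this list above background. Of these 15, 5 fell, against 21.9% of all genes above background. The genes that rose were Tnfaip3, a deubiquitinase that limits NF-kappaB and Tbk1 signalling, by 1.49 on the log2 scale, and Isg20l2, by 0.35. Whether Isg20l2 restrains interferon signalling was not tested. Atg12, Otud5 and Pias1 had log2 fold changes of -1.10, -0.93 and -0.79. Atg12 is an autophagy protein that restrains Mavs signalling, Otud5 a deubiquitinase and Pias1 a SUMO ligase that restrains interferon signalling. The nearest genes above background around Atg12 on chromosome 18 and Otud5 on the X chromosome had medians of -0.37 and -0.63. Other interferon-stimulated effectors fell in 10 of 45 cases (22.2%, against 11.4% of all genes), 4 rose (8.89%, against 11.2% of all genes), and the median was -0.05. Of the 14 called genes, 13 lay among the 21 of this list above background, and the other, Ifitm6, fell. Of all genes above background 21.9% fell and 21.2% rose. The 22.2% and 8.89% are shares of all 45 listed genes, most of them under the limit, and so have another base than these. With background subtracted the list had 7 called genes in place of 14. Here too both directions occurred. The apolipoprotein L gene Apol9a had 366, 431 and 386 in Glis2KD cells, against 165, 154 and 124 in Control cells, and the galectin Lgals9 had 1047, 862 and 1018 in Glis2KD cells, against 532, 584 and 506 in Control cells. Ifi47, a GTPase of the Igtp family, had 273, 279 and 349.7 in Glis2KD cells, against 625, 464 and 466 in Control cells, and Lgals3bp had 296, 205 and 253 in Glis2KD cells, against 444, 379.9 and 418 in Control cells. Apol9a and Lgals9 had log2 fold changes of 1.42 and 0.85, Ifi47 and Lgals3bp of -0.78 and -0.73, and limma's adjusted p was at most 1.25e-05.

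**Figure D4:**
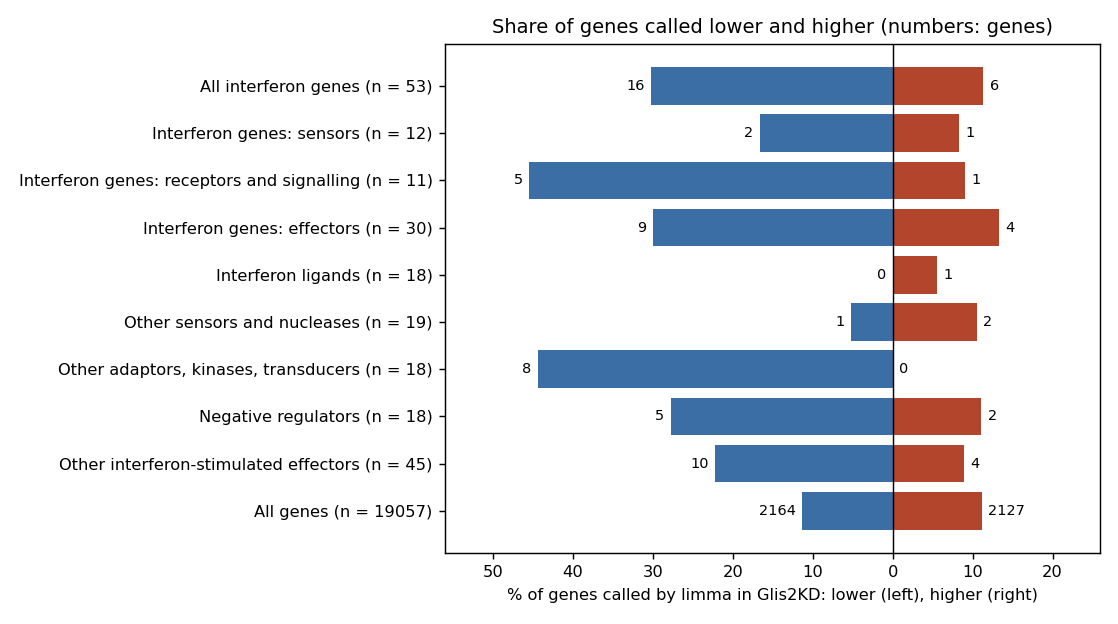
Share of measured genes (x axis, %) that limma called lower in Glis2KD cells, left of 0, and higher, right of 0, for the 53 interferon-stimulated and nucleic acid sensing genes, their 3 roles, 5 further lists of the pathway and all 19057 genes, with the number of genes at each bar. Among the 53 genes 30.2% fell and 11.3% rose, against 11.4% and 11.2% of all genes.

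The call of 14 of the 22 genes held under all 17 alternatives with a test. Among these, the floor of 32 could change no call, since the lowest intensity was 85.4. Quantile normalization and median centring had little to change, since the values came already normalized. Subtracting the most frequent value of the arrays as background moved Igtp to -2.45, Gbp2 to 2.68 and Stat2 to -1.23, while Samd9l had -2.16 and Ifngr1 1.59.

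**Figure D5:**
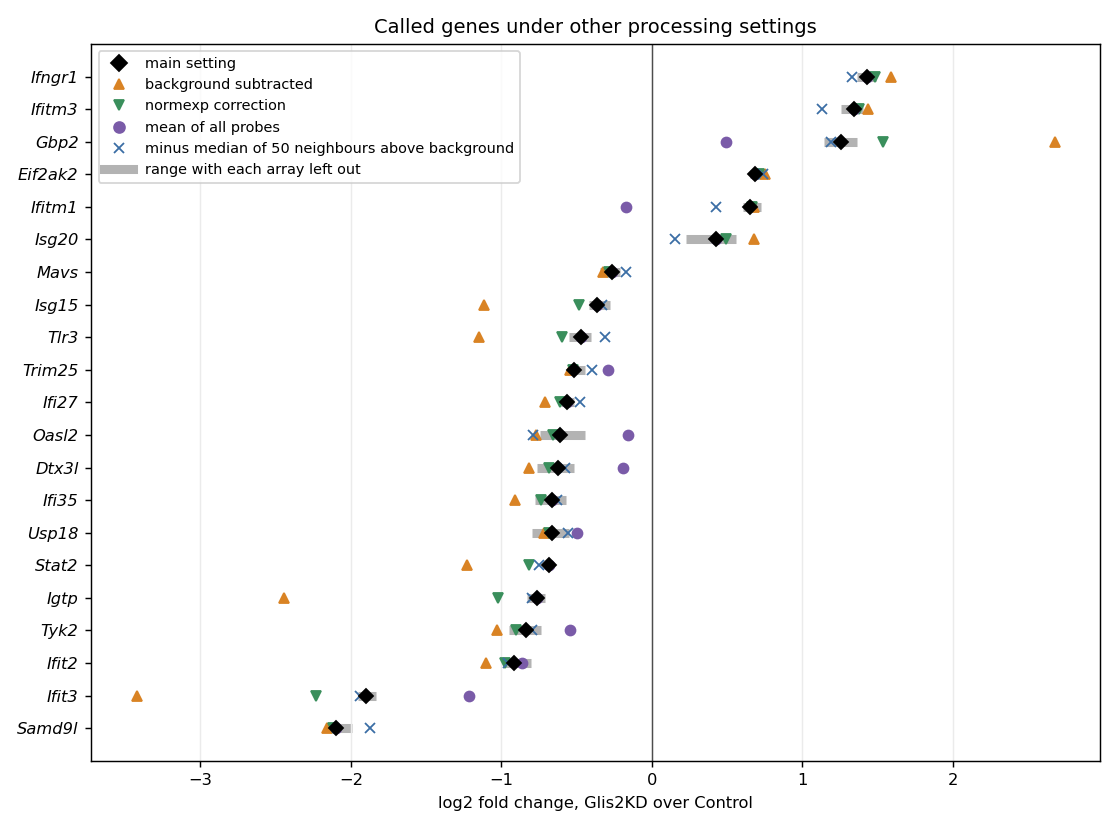
Log2 fold change (x axis, Glis2KD over Control) of the called genes other than Tmem173, for which only a bound exists, in the main setting (diamond), with background subtracted, with normexp correction, with the mean of all probes and relative to 50 neighbouring genes above background, and the range with each array left out (grey bar). Of the values shown, Ifitm1 with the mean of its probes (-0.17) lies on the other side of 0 from its main value.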

How the data were processed

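RNA from 3 Glis2KD and 3 Control samples was measured on Illumina mouse bead arrays. The authors deposited 1 linear intensity per probe and array for 45281 probes. The values came already normalized between arrays, since the array medians differed by less than 0.001 on the log2 scale, and include background; software and method were not stated in the labels or files. Intensities were floored at 16 and taken to log2, and 34885 probes with 1 gene symbol in the platform annotation gave 19057 genes, each by its brightest probe. Limma 3.58.1 (lmFit and eBayes, R 4.3.3) tested Glis2KD over Control on all 6 arrays with Benjamini-Hochberg adjustment over all genes, called below 0.05, and was tested on simulated data. A gene counts as above background when its mean exceeds 137, which is the mode of the intensities (113) plus 3 SD of the values below that mode (SD 7.91), a level that 40.9% of probes exceed on each array; the number of arrays limits the precision. Where all arrays of a group lie under this limit, a fold is given as "at least", against the limit. Replicate numbers did not pair the arrays (r of deviations from group means between -0.0531 and -0.0239 for same-numbered arrays), and no array repeated another (r = 0.995 within groups). All members are named. Called ones and the 3 brightest others per role are given by array. At most 4 called genes per further list are given, and Isg20l2 besides. Members, lists and tests were chosen with earlier results of these data known. Promoters are RefSeq's (GRCm38.p6). Alternatives tried were normalization, background, floor, offset, dim-gene filters, variance model, probe choice, replicate block, arrays left out and neighbouring genes.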

Additional observations from a re-analysis of the deposited data

How the results depend on the processing

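Of the 22 called genes, 14 kept their call under all 17 alternatives with a test, and 8 lost it under 1 or more (Tlr3, Oasl2, Mavs, Isg15, Isg20, Usp18, Ifitm1 and Dtx3l). The floor of 32 lay under every intensity and could change no call. Quantile normalization and median centring of the already normalized values likewise left 4291 of all genes and 22 interferon genes called. Subtracting background left 2644 of all genes called (4291 in the main setting), 10 of the 16 interferon genes that fell, 1 of 3 sensors and 7 of 14 other interferon-stimulated effectors. It left 0 interferon ligand genes and 0 other sensors and nucleases called by limma, with 1 and 1 at an unadjusted p below 0.05. For the other sensors and nucleases the mean of all probes gave 1 and normexp gave 1, and leaving out 1 array gave 0 to 4. The other adaptors, kinases and transducers had 5 to 7 called with 1 array left out, the interferon genes 20 to 22, and all genes 3754 to 3984. With the replicate number as a block, 22 of the interferon genes were called (16 lower and 6 higher) and 4130 of all genes, and it changed no call among them; the numbers do not pair the arrays. Reversed values were Ifitm1 with the mean of all probes (-0.17) and, among genes not called, Ddx58 with the mean of all probes (0.012). With 1 array left out, Oasl1 had -0.044 (without Glis2KD replicate 3) to 0.25, Ddx58 -0.089 to 0.017 (above 0 without Control replicate 2 or Glis2KD replicate 1), Zbp1 -0.077 to 0.0068 (without Glis2KD replicate 2) and Ifngr2 -0.11 to 0.015 (without Control replicate 1). The cause of these changes was not tested. Relative to neighbouring genes above background, an alternative chosen after the data were seen like the list counts, Samd9l had -1.87, Ifitm3 1.13 and Oasl2 -0.79. Background limits what the dim genes can show: 18 of the 53 had a mean under its limit.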
